A study of Mus musculus with 25 samples.

Results

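The claudins are the membrane proteins that form the strands of tight junctions, the seals around the top of epithelial and endothelial cells. Rows of the deposited count table were taken as members by gene symbol: Cldn1, Cldn2, Cldn3, Cldn4, Cldn5, Cldn7, Cldn12, Cldn15, Cldn18 and Cldn23. All 10 were found, each as 1 of the 17007 genes of the table. The table also held Cldn8, another claudin, and Cldnd1, a gene named for its claudin-like domain, which are not members. Each claudin crosses the membrane several times, and its outer loops meet those of claudins on the neighbouring cell. Some claudins close the space between cells, and others leave pores through which ions or water pass, so the mixture sets what a sheet of cells lets through. In the adult small intestine CLDN2 is known from the crypts and CLDN15 from the villi, and both form pores for small cations.

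Polyadenylated RNA of the duodenum, the uppermost part of the small intestine, was sequenced from male mice that entered the diets at 8 weeks of age and stayed on them for 8 weeks. Wild-type (WT) mice were of the C57BL/6N strain, and the others carried a knock-in (KI) of Aldh2, the mitochondrial enzyme that clears acetaldehyde formed from ethanol. WT_Con (n = 4) and KI_Con (n = 4) had a control diet. WT_Half (n = 7) and KI_Half (n = 6) had 2.5% ethanol in the diet and 2 gavages a week of 2 g/kg ethanol. WT_Full (n = 4) had 5% ethanol and 2 weekly gavages of 4 g/kg. The tissue was collected 9 h after a final gavage, given as 5 g/kg. The sources used here do not state whether control mice received any gavage, whether that final dose also applied to WT_Half and KI_Half, which amino acid the knock-in changes, or the strain background of the knock-in beyond its name. The labels number the libraries within a group and do not say that each came from a different mouse, so the p-values measure the spread between these libraries.

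Library totals ran from 24580461 to 44846281 counts. The duodenal regulator Pdx1 stood at 88.4 to 229 CPM (counts scaled to a common library size) and the hormone gene Gip at 38.4 to 149 CPM, while Slc10a2, the bile acid carrier of the ileum, stayed at 0.511 to 2.68 CPM. Aldh2 itself was counted at 293 to 640 CPM over the 25 libraries, and gene counts do not show which allele a library carries. Pieces differed in what came with the duodenum. Summed CPM of 3 Brunner gland genes (Muc6, Tff2, Gkn3) ran from 15.3 to 53685, and the acinar pancreas gene Ctrb1 exceeded 10 CPM in 5 of the 8 control libraries (WT_Con replicates 1, 3 and 4, KI_Con replicates 1 and 2) and in 0 ethanol libraries. Values without these control libraries are given where a call changes.

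Levels per kb of exons, which allow genes of different length to be compared, put Cldn7 first at 333 ± 44.5 CPM per kb (SD, n = 25 libraries), then Cldn3 at 258 ± 36.5, Cldn15 at 185 ± 86.4, Cldn4 at 124 ± 65.8 and Cldn2 at 105 ± 54.5. Cldn23 (14.6 ± 4.68) and Cldn12 (8.20 ± 2.24) lay lower, and Cldn5 (1.98 ± 0.669) and Cldn1 (0.256 ± 0.286) were close to the lower end of what was counted. The Cldn18 mean of 4.01 ± 19.7 comes from a single library. The claudins thus divide into 5 abundant genes and 5 scarce ones. Among the abundant ones, Cldn7 and Cldn3 varied little across libraries (SD of log2 CPM 0.20 and 0.21), whereas Cldn2 (0.91), Cldn15 (0.83) and Cldn4 (0.82) varied much more.

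**Figure D1:**
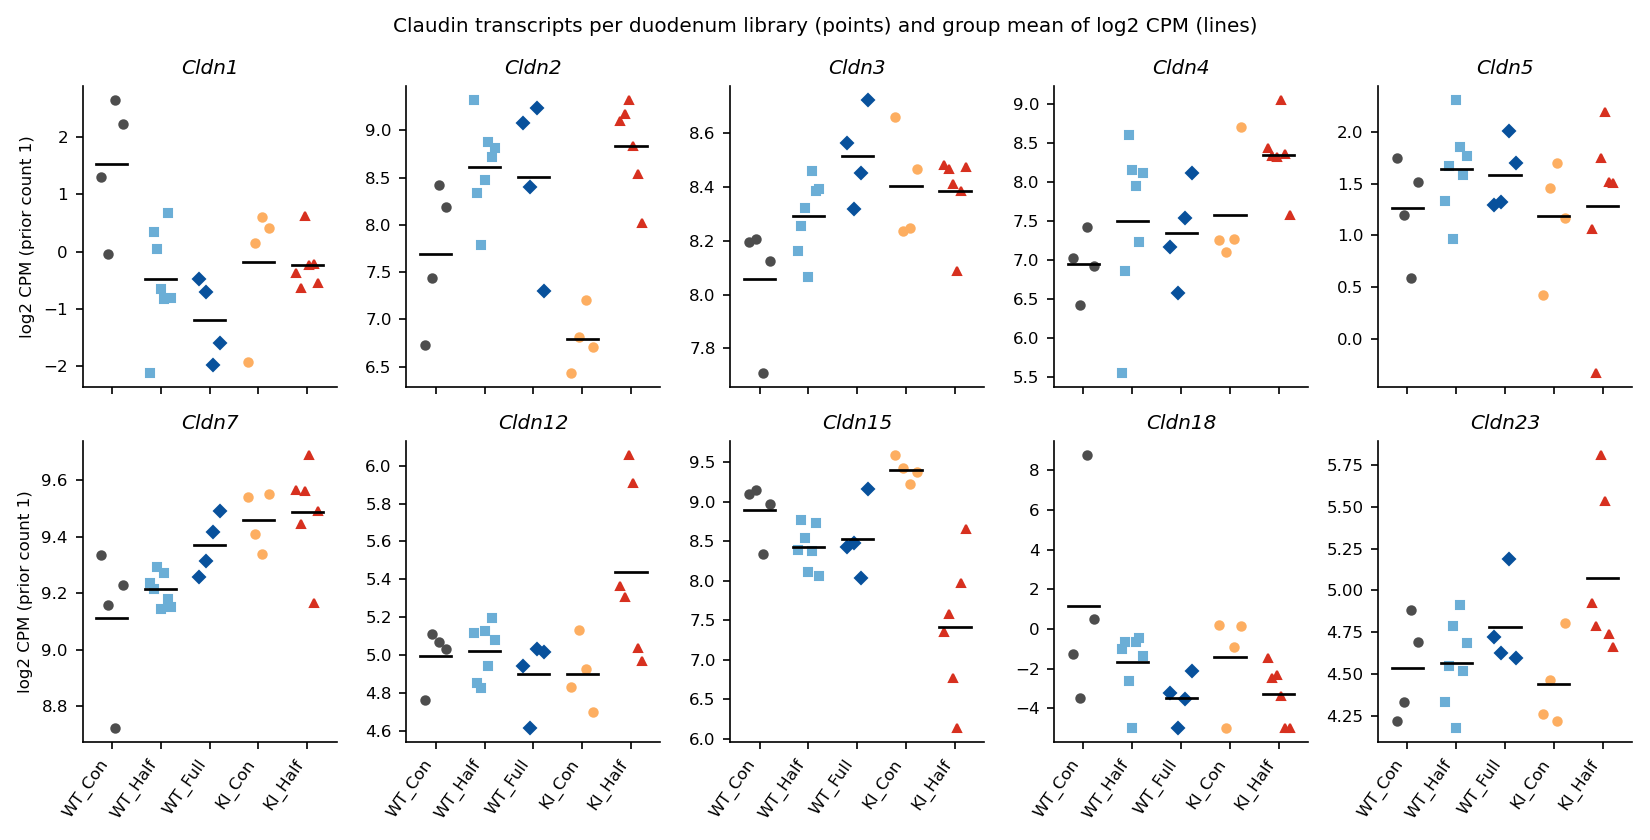
Level of each claudin in each library (points, log2 CPM with a prior count of 1) by group, with the group mean of log2 CPM as a line. The 6 KI_Half libraries lie above the 4 KI_Con libraries for Cldn2 and below them for Cldn15, and 1 WT_Con library stands alone for Cldn18. Vertical axes differ between genes.

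Each comparison was read from an edgeR quasi-likelihood test over all genes with Benjamini-Hochberg adjustment and a threshold of 0.05. In KI_Half vs KI_Con, Cldn2, Cldn12 and Cldn23 rose and Cldn15 fell. These were 4 of the 9 claudins tested, where 37.9% of all 16944 genes passed, 20.0% as higher and 17.9% as lower, so the share of claudins was near that of genes at large. DESeq2 called 4 claudins as well, and 41.6% of genes. The median log2 difference of the 9 claudins was 0.21, with 0.0035 over all genes. Cldn2 and Cldn15 were the claudins whose groups did not overlap, as for 27.4% of genes. In WT_Half vs WT_Con Cldn18 alone passed, as lower, where 1.47% of 16993 genes passed, 0.894% as higher and 0.571% as lower. DESeq2 called 1 claudin there, Cldn1, and 7.99% of genes. For 0 of 10 claudins did WT_Half and WT_Con not overlap, against 5.27% of genes, 3.1% upwards and 2.17% downwards. In WT_Full vs WT_Con 0 of 9 claudins passed, and 0.00592% of 16882 genes did, which is 1 gene (3003 genes at an unadjusted p under 0.05, 934 by DESeq2, or 5.52%). Claudins with an unadjusted p under 0.05 were 4 of 10 in WT_Half vs WT_Con (21.8% of genes) and 2 of 9 in WT_Full vs WT_Con (17.8%). Without WT_Full replicate 4 the same test called 2069 genes and 1 claudin, Cldn1. The median difference of the tested claudins was 0.06 for WT_Half vs WT_Con and 0.26 for WT_Full vs WT_Con, with -0.0010 and -0.00072 over all genes.

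No gene of the table, and so no claudin, passed edgeR in the other 4 tests (0.0% of genes). In KI_Half vs WT_Half 2398 genes (14.2%) had an unadjusted p under 0.05 and 172 passed DESeq2 (1.03%), and 5 of 10 claudins were among the former and 0 among the latter. In KI_Con vs WT_Con 1664 genes (9.90%) had such a p and 8 passed DESeq2 (0.0473%), with 5 and 0 claudins. In WT_Full vs WT_Half the numbers were 780 (4.597%) and 20 genes (0.118%), with 1 and 0 claudins. The difference between the genotypes in their response to the 2.5% diet, tested as an interaction over 21 libraries, gave 2162 (12.7%) and 31 genes (0.183%), with 5 and 0 claudins. KI_Half vs KI_Con and KI_Con vs WT_Con share the KI_Con libraries, and WT_Half vs WT_Con and WT_Full vs WT_Con share the WT_Con libraries. Their values are given side by side and are not independent of each other.

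**Figure D2:**
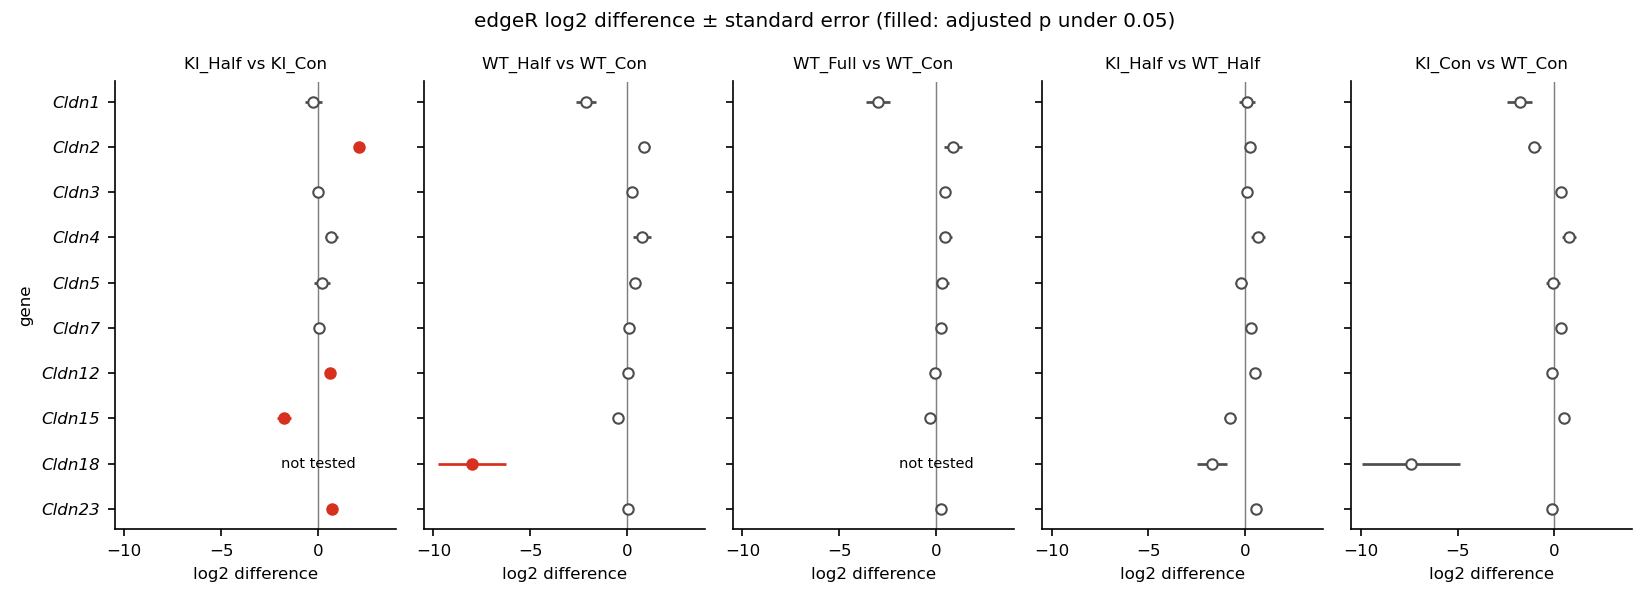
Log2 difference of each claudin (point) ± its standard error in 5 comparisons, from edgeR. Filled points have an adjusted p under 0.05. Cldn2, Cldn12 and Cldn23 (right of 0) and Cldn15 (left of 0) are filled for KI_Half vs KI_Con, and Cldn18 alone is filled for WT_Half vs WT_Con.

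The bases before the start of Cldn2 and Cldn15 are shown because these genes went in opposite directions in KI_Half. Of the 10 claudins, 9 had an entry among RefSeq promoters of GRCm38.p6. Capitals mark matches, on either strand, to the CDX motif TTTATG of intestinal transcription factors, to TATAAA (the TATA box) and to TGANTCA (AP-1). The stretches are chrX:139800558-139800807 and chr5:136967619-136967868, both on the plus strand. Each ends at the base before the RefSeq start, which for Cldn15 lies inside the gene as GENCODE gives it.
Cldn2: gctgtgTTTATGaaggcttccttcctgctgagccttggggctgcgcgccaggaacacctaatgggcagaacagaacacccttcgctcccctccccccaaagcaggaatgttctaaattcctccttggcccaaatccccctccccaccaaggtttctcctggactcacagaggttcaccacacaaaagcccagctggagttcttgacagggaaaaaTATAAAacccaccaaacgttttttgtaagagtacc
Cldn15: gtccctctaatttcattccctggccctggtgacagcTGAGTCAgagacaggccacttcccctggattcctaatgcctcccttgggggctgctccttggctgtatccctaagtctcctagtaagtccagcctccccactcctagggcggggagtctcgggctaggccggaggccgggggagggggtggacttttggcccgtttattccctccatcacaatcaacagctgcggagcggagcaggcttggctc
The Cldn2 window held 1 match to the CDX motif, which 10.8% of 32851 promoter windows of this length hold, and 1 to the TATA box (12.4%). The Cldn15 window held 1 match to AP-1 (6.75%). Cldn2 had 0 matches to AP-1 and Cldn15 had 0 to the other motifs in this window, and the matches did not overlap. A match is a description of the letters and not a binding site. Of the CDX genes, Cdx1 rose from 80.3 ± 4.64 to 114 ± 17.6 CPM in KI_Half vs KI_Con (log2 difference 0.52 ± 0.12, adjusted p = 0.00704), while Cdx2, named beside it, had 0.46 ± 0.18 (0.0692).

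Cldn2 (ENSMUSG00000047230, GRCm38 chromosome X, 139800828 to 139811386, plus strand) encodes the channel for sodium and water that is typical of leaky epithelia. It stood at 86.2, 112, 147 and 104 CPM in KI_Con replicates 1 to 4. KI_Half ran from 260 to 641 CPM with a median of 502. All 6 KI_Half libraries exceeded all 4 KI_Con libraries, a separation upwards seen in 13.5% of genes in this comparison. The log2 difference was 2.08 ± 0.25 (SE), or 4.24-fold (edgeR adjusted p = 0.000416), and it stayed between 1.98 and 2.25 and past the threshold with any 1 of the 10 libraries left out. In bulk tissue, fewer or more cells of a type and less or more RNA per cell cannot be told apart, here and in every result that follows.

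In wild-type mice the same gene stood at 106, 173, 344 and 293 CPM in WT_Con replicates 1 to 4. WT_Half ran from 220 to 640 CPM with a median of 420, and WT_Full had 540, 337, 605 and 158 CPM. Of the WT_Half libraries 5 of 7 lay above the range of WT_Con, and of the WT_Full libraries 2 of 4, so these groups overlapped. The differences were 0.86 ± 0.33 for WT_Half vs WT_Con (adjusted p = 0.158) and 0.86 ± 0.46 for WT_Full vs WT_Con (0.356). WT_Full replicate 4 was the low one, and without it the latter became 1.13 ± 0.39 (0.0954), still short of the threshold. The 2 control groups also differed in level, 113 ± 25.5 in KI_Con against 229 ± 109 in WT_Con (SD, n = 4 each), a log2 difference of -1.04 ± 0.34 (0.502). KI_Half at 476 ± 142 and WT_Half at 411 ± 132 CPM differed by less than the SD of either. The interaction was 1.24 ± 0.43 (adjusted p = 0.334).

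Cldn15 (ENSMUSG00000001739, chromosome 5, 136966616 to 136975858, plus strand) encodes the sodium-permeable claudin of the villus, needed for the luminal sodium that drives glucose uptake. KI_Con replicates 1 to 4 had 772, 690, 599 and 662 CPM. KI_Half ran from 70.1 to 402 CPM with a median of 177. No KI_Half library reached the lowest KI_Con library, a separation downwards shared by 13.9% of genes. The log2 difference was -1.77 ± 0.38, or 3.41-fold lower (edgeR adjusted p = 0.0045), and it ran from -2.11 to -1.58 with each library left out, past the threshold each time. Without KI_Con replicates 1 and 2, the libraries with acinar RNA, it was -1.66 ± 0.49 with adjusted p = 0.0515, while Cldn2 kept 1.92 ± 0.34 with adjusted p = 0.0152.

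The wild-type groups showed a smaller difference in the same direction that did not pass. WT_Con had 548, 568, 325 and 502 CPM, WT_Half 268 to 437 with a median of 335, and WT_Full 345, 357, 262 and 573. Of the WT_Half libraries 2 of 7 lay below the range of WT_Con, and WT_Full had 1 library below it and 1, replicate 4, above it. WT_Half vs WT_Con gave -0.47 ± 0.18 (adjusted p = 0.156). By mean level the groups ran from KI_Con (681 ± 72.0) through WT_Con (486 ± 111), WT_Full (384 ± 133) and WT_Half (349 ± 65.9) to KI_Half (198 ± 118), and of neighbours in this order WT_Con and WT_Full, and WT_Full and WT_Half, differed by less than the larger SD. KI_Half vs WT_Half was -0.81 ± 0.31 (0.302), KI_Con vs WT_Con 0.47 ± 0.18 (0.502) and the interaction -1.30 ± 0.44 (0.334).

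Per kb of exons the 2 pore-forming genes changed places in 4 of 6 KI_Half libraries. The ratio of Cldn2 to Cldn15 was 0.0713 to 0.157 in KI_Con (median 0.102) and 0.412 to 4.17 in KI_Half (median 2.04). That these ranges do not overlap follows from the separation of each gene given above and is no further result. In WT_Con the ratio was 0.123 to 0.677 (median 0.284), in WT_Half 0.378 to 1.22 (median 0.820) and in WT_Full 0.176 to 1.48 (median 0.803). Cldn2 was the more abundant of the pair in 0 of the 8 control libraries, 2 of 7 WT_Half, 2 of 4 WT_Full and 4 of 6 KI_Half libraries. Together they made up 14.9% to 25.5% of the claudin total per kb in KI_Half and 27.2% to 34.3% in KI_Con.

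**Figure D3:**
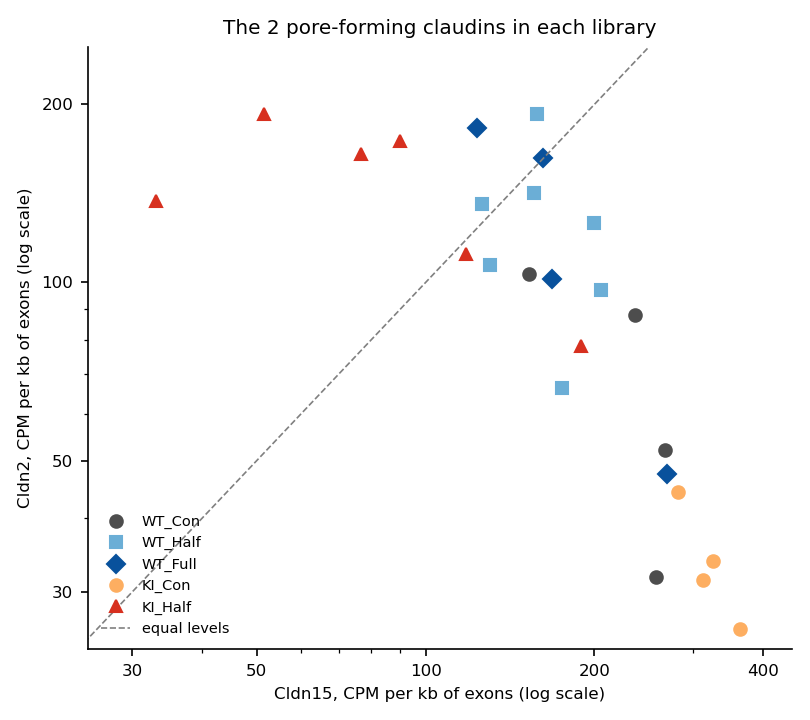
Cldn2 (vertical) against Cldn15 (horizontal) in each library, in CPM per kb of exons on log scales, by group, and a dashed line where both are equal. KI_Con libraries lie at the lower right (ratio 0.0713 to 0.157), and 4 of 6 KI_Half libraries lie above the line.

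Within KI_Half the pair followed a split between libraries. Replicates 1, 2, 3 and 5 had Cldn15 at 163, 191, 109 and 70.1 CPM and ratios of 1.93 to 4.17. Replicates 6 and 7 had 251 and 402 CPM and ratios of 0.944 and 0.412. Summed CPM of 7 genes of inflamed epithelium (Lcn2, Nos2, Duoxa2, Duox2, Il33, Cxcl1, Ccl20) was 612 to 3024 in the former 4 and 106 and 53.1 in the latter, against 23.5 to 27.1 in KI_Con. All 7 of these genes passed as higher in KI_Half vs KI_Con, as did 20.0% of all genes. This list, like the marker lists below, was chosen with earlier results of these data known. Its 7 calls are therefore a description and not a separate result. The library with the least Cldn15 and that with the highest of these sums were the same in 2 of 5 groups, WT_Con and WT_Full, and in KI_Half they were replicates 5 and 3. In WT_Con the shared library was replicate 3, which also had the most Brunner gland RNA (summed CPM 53685). Its sum for inflamed epithelium was 118, but its Lcn2, at 2.46 CPM, was the lowest in WT_Con. The part of the 7 genes in the claudin differences was not tested.

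Marker genes of other cell types also differed in KI_Half vs KI_Con, where 20.0% of all genes passed as higher and 17.9% as lower. Of 10 enterocyte genes 7 passed as lower (summed CPM 16812 to 36007 in KI_Half, 34156 to 49053 in KI_Con), and of 10 crypt and dividing-cell genes 4 passed as higher and 1 as lower (553 to 709 against 346 to 534). The libraries with the most Cldn15 and the highest enterocyte sum were the same in 4 of 5 groups, all but WT_Con. Those with the most Cldn2 and the highest crypt sum were the same in 4 of 5 groups, all but WT_Full. WT_Half replicate 1, for example, had the top Cldn2 level of its group (640 CPM) and a crypt sum of 1401, with 816 the next highest. In KI_Half the 2 highest crypt sums were close, 709 and 687. The matching libraries of WT_Con, KI_Con and KI_Half, each replicate 3, also had the highest Brunner gland sums of their groups (53685, 10913 and 7174). WT_Half replicate 1 had a Brunner gland sum of 125, where the highest of its group was 16945. Of the other lists, 13 of 13 acinar genes, 7 of 7 T cell genes and 3 of 7 goblet cell genes passed as lower in KI_Half vs KI_Con, and 1 goblet cell and 2 of 7 Paneth cell genes as higher. Of enteroendocrine genes 2 of 6 passed as higher, and 2 of 5 stomach genes and 1 of 6 genes of duodenal identity as lower. The acinar calls rest on KI_Con replicates 1 and 2, with summed CPM of 6136 and 2127. Replicates 3 and 4 had 37.9 and 36.8, within the 22.7 to 44.7 of KI_Half. The pairings of libraries were chosen after the values were seen, and the part of cell makeup in the claudin differences was not tested.

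**Figure D4:**
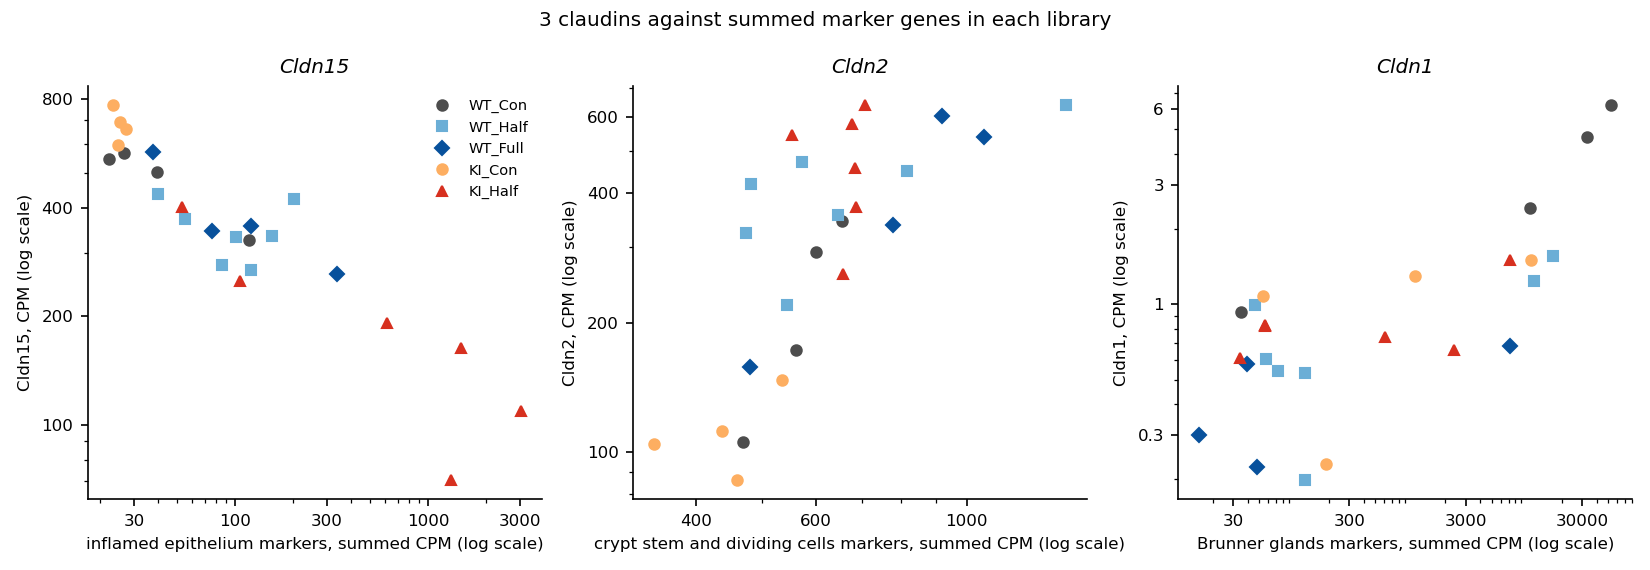
Cldn15, Cldn2 and Cldn1 in CPM (vertical, log scale) against the summed CPM of marker genes (horizontal, log scale) in each of 25 libraries, by group. Cldn15 is lowest in the KI_Half libraries with the highest sums for inflamed epithelium (612 to 3024), and Cldn1 is highest in the 2 WT_Con libraries with the most Brunner gland RNA.

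Cldn7, Cldn3, Cldn4 and Cldn1, which form barriers in epithelia, passed edgeR in no comparison. Of all genes, 37.9% passed in KI_Half vs KI_Con and at most 1.47% in any other. Cldn5 and Cldn18 are given below, and Cldn18 passed in WT_Half vs WT_Con. Cldn7 (ENSMUSG00000018569, chromosome 11, 69964779 to 69967885), a claudin of the lateral membrane that the gut needs to keep its lining intact, ran from 422 to 826 CPM over all libraries. KI_Half at 722 ± 84.4 and KI_Con at 706 ± 49.9 differed by less than either SD. KI_Con lay above all 4 WT_Con libraries, 648 to 751 against 422 to 646 CPM, with a log2 difference of 0.32 ± 0.14 (adjusted p = 0.502). KI_Half vs WT_Half gave 0.28 ± 0.09 (0.273), with 5 of 6 KI_Half libraries above the range of WT_Half.

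Cldn3 (ENSMUSG00000070473, chromosome 5, 134986214 to 134987472), a sealing claudin, had 293, 295, 209 and 279 CPM in WT_Con. WT_Full had 379, 319, 350 and 423 CPM, so that every library lay above WT_Con, as for 4.22% of genes upwards in this comparison. This was a log2 difference of 0.46 ± 0.17 with edgeR adjusted p = 0.223. The authors' deposited table lists 0.45 with adjusted p = 0.0189 for this comparison, in which 11.5% of its genes passed, and 1 edgeR fit of all 25 libraries gave 0.45 ± 0.13 with adjusted p = 0.0359. WT_Half lay between, at 268 to 352 CPM (median 320), with 0.23 ± 0.12 against WT_Con (0.293), and WT_Full vs WT_Half was 0.24 ± 0.11 (1.00). KI_Con had 302 to 405 CPM, again above all of WT_Con (log2 difference 0.33 ± 0.15, 0.503), and KI_Half 272 to 357.

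Cldn4 (ENSMUSG00000047501, chromosome 5, 134945119 to 134946934), a claudin that tightens epithelia against sodium, was more uneven over the libraries than Cldn7 and Cldn3. KI_Con had 153, 138, 154 and 415 CPM, and KI_Half 191 to 530 with a median of 324. All but 1 KI_Half library lay below the KI_Con library at 415 CPM, replicate 4, and all lay above the other 3. The log2 difference was 0.67 ± 0.34 (adjusted p = 0.139), and 1.199 ± 0.25 (0.00797) without that replicate, the 1 leave-out that let it pass. WT_Con had 85.7 to 172 CPM, WT_Half 46.9 to 387 and WT_Full 95.1 to 277, all overlapping. KI_Con vs WT_Con was 0.74 ± 0.37 (0.518).

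Among the control groups, Cldn3, Cldn7 and Cldn15 were the 3 claudins whose KI_Con libraries all exceeded all WT_Con libraries, where 2.97% of genes separated upwards and 0 claudins downwards (1.61% of genes, and 4.58% either way). None passed the test. Cldn3 and Cldn15 lie 13.4 and 15.4 Mb from Aldh2 on chromosome 5, as does Cldn4 at 13.4 Mb, while Cldn7 is on chromosome 11. Enterocyte genes lay the same way, with a positive difference for 10 of 10 and 0 past the threshold. The part of either in these values was not tested.

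Cldn1 (ENSMUSG00000022512, chromosome 16, 26356642 to 26371841), the sealing claudin known from the skin barrier, was scarce, with 6 to 277 counts a library. WT_Con had 2.43, 0.936, 6.26 and 4.64 CPM, WT_Full 0.683, 0.579, 0.224 and 0.301, and WT_Half 0.199 to 1.57 with a median of 0.606. All WT_Full libraries lay below all WT_Con libraries, as did 3.78% of genes, and 4 of 7 WT_Half libraries did. On the log2 scale the difference was -3.00 ± 0.63 for WT_Full vs WT_Con (edgeR adjusted p = 0.129) and -2.13 ± 0.53 for WT_Half vs WT_Con (0.0624). Other fits passed: DESeq2 gave adjusted p = 0.000231 and 0.00376, and the edgeR fit of all 25 libraries 0.00733 and 0.0149. The authors' deposited table lists -3.01 with adjusted p = 5.25e-05 for WT_Full vs WT_Con. With edgeR on the 2 groups, the former also passed without WT_Full replicate 4 (0.0404) and the latter without WT_Con replicate 2 (0.0366) or WT_Half replicate 6 (0.0444).

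Cldn1 went with Brunner gland RNA at the top of each group, and only in part below it. In each of 5 groups the library with the highest Brunner sum had the most Cldn1, a pairing chosen after the values were seen. In WT_Con the sums of replicates 3, 4, 1 and 2 were 53685, 33250, 10608 and 35.1, in the same order as Cldn1. Such an order held only in part in the other groups. KI_Con replicate 2 had a sum of 54.3 and 1.08 CPM of Cldn1, against 190 and 0.231 CPM in replicate 1. KI_Half replicate 7 had a sum of 2395 and 0.655 CPM, against 56.4 and 0.830 CPM in replicate 6. With the Brunner level as a covariate the differences became -1.69 ± 0.52 (adjusted p = 0.255) and -1.22 ± 0.43 (0.319). The knock-in groups had 0.231 to 1.497 CPM in KI_Con and 0.610 to 1.4996 in KI_Half, which overlapped. KI_Con vs WT_Con was -1.80 ± 0.64 (0.502), and it was 0.59 ± 0.55 (0.749) without the control libraries with acinar RNA, which leaves WT_Con replicate 2 alone in its group. The interaction of 1.89 ± 0.74 (0.342) likewise turned to -0.49 ± 0.93 (0.965).

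Cldn12 and Cldn23 rose together in KI_Half. Cldn12 (ENSMUSG00000046798, chromosome 5, 5489537 to 5514958), a claudin tied to calcium uptake in the intestine, had 28.4, 35.0, 30.4 and 25.9 CPM in KI_Con and 31.2 to 66.6 in KI_Half (median 40.3). The other groups kept to 24.4 to 36.5 CPM, and replicates 3 and 5 of KI_Half stood out at 66.6 and 60.0. The log2 difference was 0.60 ± 0.22 (edgeR adjusted p = 0.0453), with 4 of 6 KI_Half libraries above the range of KI_Con. It passed only without KI_Half replicate 6 or 7 and was lost without any of the other 8 libraries, with adjusted p up to 0.121, and also with the Brunner covariate (0.0562). The interaction was 0.57 ± 0.24 (0.354) and KI_Half vs WT_Half 0.48 ± 0.17 (0.279).

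Cldn23 (ENSMUSG00000055976, chromosome 8, 35824712 to 35826559), known from the differentiated surface of the gut lining, had 19.2, 22.0, 18.6 and 27.9 CPM in KI_Con and 25.3 to 56.1 in KI_Half (median 29.0). The same replicates 3 and 5 were highest, at 56.1 and 46.4 CPM, and 3 of 6 libraries exceeded the range of KI_Con. This gave a log2 difference of 0.70 ± 0.24 (adjusted p = 0.0382), and it was lost without KI_Con replicate 1, 2 or 3 or KI_Half replicate 3 or 5 (adjusted p 0.0585 to 0.0996). The interaction was 0.67 ± 0.30 (0.370) and KI_Half vs WT_Half 0.56 ± 0.20 (0.278). Without KI_Con replicates 1 and 2, Cldn12 (0.68 ± 0.30, 0.141) and Cldn23 (0.61 ± 0.34, 0.226) both missed the threshold. Over 25 libraries Cldn12 and Cldn23 were, after Cldn3 and Cldn7, the pair of claudins most alike in log2 CPM centred on its mean (mean absolute difference 0.23, and 0.13 for Cldn3 and Cldn7). Cldn7 and Cldn12 came next at 0.25. This measure is small for any genes that vary little. Cldn7, Cldn3, Cldn12 and Cldn23 had the smallest SDs of log2 CPM among the members (0.20, 0.21, 0.32 and 0.39). The ranking therefore does not show that Cldn12 and Cldn23 vary together.

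**Figure D5:**
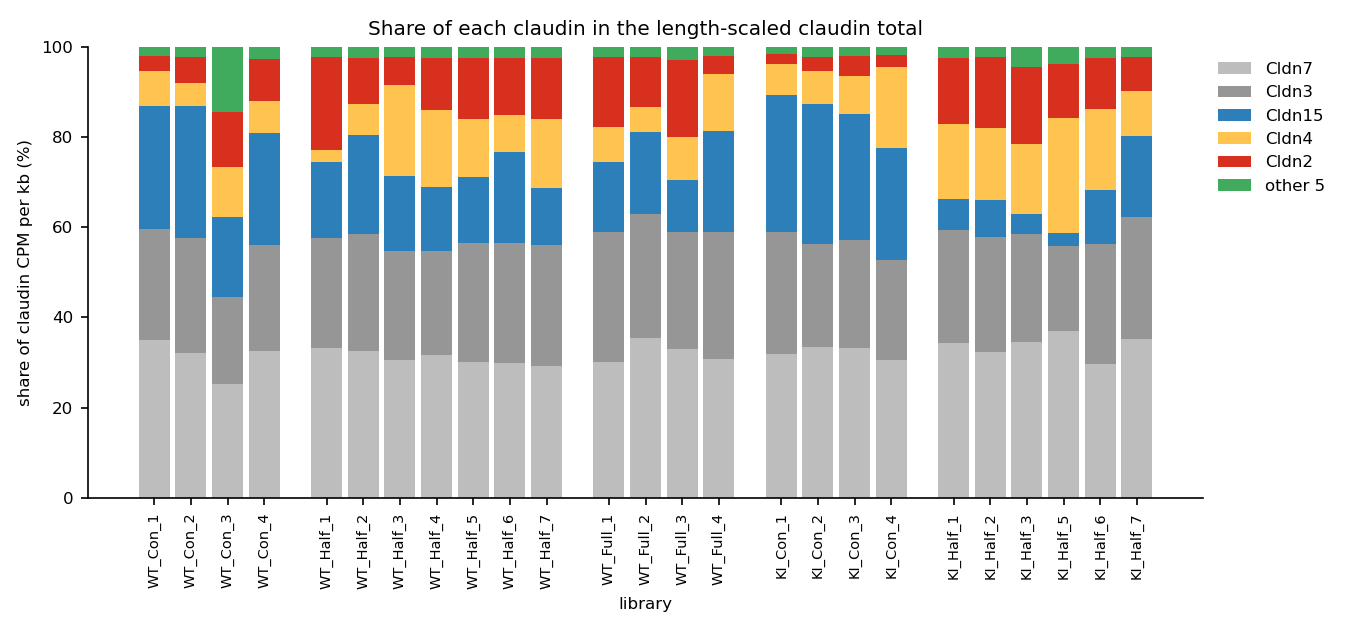
Share of each claudin (colours) in the summed CPM per kb of the 10 members, for each library (bars, by group). Cldn7 and Cldn3 take a similar share throughout, Cldn15 shrinks to 2.88% to 18.1% in KI_Half against 24.7% to 31.1% in KI_Con, and the other 5 genes are visible as a large share only in WT_Con replicate 3.

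Cldn5 (ENSMUSG00000041378, chromosome 16, 18776847 to 18778262), the claudin that seals blood vessels of the brain, ran from 0.762 to 4.94 CPM and passed in no comparison. KI_Half at 2.72 ± 1.27 and KI_Con at 2.36 ± 0.814 CPM overlapped. Between the same groups 7 of 12 endothelial genes passed as lower (summed CPM 99.99 to 244 against 310 to 411), as did 17.9% of all genes. The library with the most Cldn5 was never the one with the highest endothelial sum, in 0 of 5 groups.

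Cldn18 (ENSMUSG00000032473, chromosome 9, 99689461 to 99717267), the claudin of stomach and lung, was high in 1 library only. WT_Con replicate 3 had 19408 counts, or 439 CPM, while the other 24 libraries had 0 to 48 counts and at most 1.41 CPM. In 5 libraries there were 0 counts, which allows up to 0.0939 to 0.120 CPM for counting error alone. The 5 stomach genes of the table summed to 15508 CPM in that library and to 2.99 to 529 CPM elsewhere. Gkn1, Gkn2 and Muc5ac of the stomach surface reached 5740, 6722 and 2045 CPM there, and Atp4a, the proton pump of parietal cells, 0.678 CPM. The log2 difference of -7.99 ± 1.75 in WT_Half vs WT_Con (edgeR adjusted p = 0.0451) became -0.57 ± 0.86 (0.741) without that library. It was also lost in 9 of the other 10 fits with 1 library left out, with adjusted p of 0.0509 to 0.106. KI_Con vs WT_Con was -7.40 ± 2.52 (0.502) and turned to 0.09 ± 1.06 (0.996) without it, and the interaction of 5.66 ± 2.82 (0.403) turned to -1.82 ± 1.38 (0.764). The remaining differences, -2.24 ± 0.90 in WT_Full vs WT_Half (1.00) and -1.74 ± 0.77 in KI_Half vs WT_Half (0.333), rest on 0 to 25 counts a library. In KI_Half vs KI_Con and WT_Full vs WT_Con Cldn18 was not tested, because too few libraries reached the level asked by the filter on low counts. It passed as lower in KI_Half vs KI_Con without KI_Con replicate 2 (-2.81 ± 0.75, adjusted p = 0.0198), and in WT_Full vs WT_Con with 1 fit of all 25 libraries (-10.28 ± 2.06, 0.00696), which includes the stomach-rich library. The libraries highest in Cldn18 and in the stomach sum were the same in 2 of 5 groups, WT_Con and WT_Half. Outside WT_Con replicate 3 the highest sums were mostly Pgc, another gene of that list. It gave 497 of 529 CPM in WT_Con replicate 4 and 168 of 186 in KI_Con replicate 3. In KI_Con replicates 1 to 4 Gkn2 was 10.5, 0, 7.80 and 10.1 CPM, where Cldn18 was 1.12, 0, 0.499 and 1.07. In KI_Half, Gkn2 was highest in replicate 6 (1.76 CPM), which had 0 counts of Cldn18.

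In order of mean CPM, neighbouring groups mostly lay within the larger of their SDs. Cldn2 ran from KI_Half through WT_Half, WT_Full and WT_Con to KI_Con, and only the last step, from WT_Con, exceeded it. Cldn7 ran from KI_Half through KI_Con, WT_Full and WT_Half to WT_Con, with 1 such step, from WT_Full to WT_Half. Cldn3 ran from WT_Full through KI_Con, KI_Half and WT_Half to WT_Con, with 1 such step, the last. Cldn4 was highest in KI_Half, which stood beyond the SD above WT_Half, and then KI_Con, WT_Full and WT_Con followed within it. Cldn1 had 1 such step, from WT_Con to KI_Con, above KI_Half, WT_Half and WT_Full. Cldn12, Cldn23 and Cldn5 had 0.

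Claudin differences not printed above had an unadjusted p of at least 0.1. They lay between -0.34 and 0.47 in WT_Full vs WT_Con, 0.03 and 0.76 in WT_Half vs WT_Con, -0.25 and 0.21 in KI_Half vs KI_Con, -0.23 and 0.65 in KI_Half vs WT_Half, -0.12 and -0.07 in KI_Con vs WT_Con, -0.86 and 0.24 in WT_Full vs WT_Half and -0.24 and -0.05 for the interaction.

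Other parts of the junction were read from 3 lists. Of 9 further strand proteins, Ildr1 rose and Jam2 fell in KI_Half vs KI_Con, where 20.0% of all genes rose and 17.9% fell. Ildr1, which seals the points where 3 cells meet, went from 3.19 ± 0.748 to 46.6 ± 25.1 CPM (log2 difference 3.87 ± 0.46, edgeR adjusted p = 0.000416), and Jam2, an adhesion molecule of vessels, from 12.3 ± 1.203 to 7.55 ± 1.71 (-0.69 ± 0.17, 0.00936). Occludin (Ocln), named for its place in the strand and not by its p, had 61.6 ± 9.95 in KI_Con and 61.5 ± 5.00 in KI_Half, less than its spread. The median difference of these 9 genes was 0.0064.

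Scaffold genes tie the strands to the cell cortex. Of 12 read, 2 rose and 4 fell in that comparison (20.0% and 17.9% of all genes), with a median of 0.09. The smallest p-values were those of Mpp5, part of a complex that sets cell polarity, at 49.5 ± 5.43 against 72.5 ± 7.85 CPM (-0.54 ± 0.10, 0.0026), and Magi1, a junction scaffold, at 42.4 ± 2.27 against 53.0 ± 4.75 (-0.31 ± 0.08, 0.0126). Of 13 partners and regulators of claudins 3 rose and 2 fell, near the share over all genes (37.9% either way), with a median of 0.08. Prss8, a membrane protease of epithelia, went from 23.0 ± 4.57 to 39.2 ± 4.88 CPM (0.78 ± 0.14, 0.00202), and Cdx1, given above, was next. Vdr, the vitamin D receptor, known to induce Cldn2 and Cldn12, fell from 722 ± 19.7 to 263 ± 146 CPM (-1.44 ± 0.35, 0.00834), and is named after its value was seen. In the other 6 tests 0 genes of these lists passed, and at most 1.47% of all genes did. The smallest p there was that of Hnf4a, a regulator of enterocyte genes, at 972 ± 106 in WT_Half against 670 ± 78.3 in WT_Con (0.54 ± 0.12, 0.0505). It was followed by Ildr1 in the interaction (2.36 ± 0.63, 0.327), Cdx2 in WT_Half vs WT_Con (0.67 ± 0.16, 0.0613), Cdx1 there, the third of its list, named for this order (0.80 ± 0.19, 0.0613), and Cdx1 in WT_Full vs WT_Con (0.92 ± 0.21, 0.141).

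The genes most like a claudin were sought for the 3 with the largest spread, as the smallest mean absolute difference in centred log2 CPM over 25 libraries among 13812 genes. For Cldn2 they were Cd276 (0.27), Ephb2 (0.30), Rrp12 (0.31), Slc7a1 (0.32) and Qtrt2 (0.32), with a median of 0.80 over genes. For Cldn1 they were Pacsin1 (0.46), Tbc1d16 (0.50), Hpn (0.50), Slc16a7 (0.50) and Sdk2 (0.50), with a median of 0.91. For Cldn18 the best, H2-M2, reached 1.41, followed by Gm10384, Klk1, Gne and Elapor1, with a median of 1.94, so none of the genes compared followed it closely. The 13812 genes compared all had a mean log2 CPM of at least 0, so scarcer genes were not searched.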

How the data were processed

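The data are 25 polyadenylated RNA libraries of mouse duodenum, from 24580461 to 44846281 counts. Per the submitters' processing notes, reads passed FastQC, Trimmomatic, HISAT2 on GRCm38, SAMtools, featureCounts and DESeq2. No version, strand setting or rule for multi-mapping reads is stated in the labels. The authors deposited whole read counts per gene, and log2 fold changes and adjusted p-values per the file headers. The deposited signal column was not used. Of 17220 lines, 213 repeats of an identifier were merged.

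Each comparison was fitted on its own libraries in R 4.3.3 with edgeR 4.0.16 (TMM, default filter on low counts, quasi-likelihood F test, two-sided). The interaction used 21 libraries. SE is the difference over the root of F. CPM used TMM over 25 libraries, and lengths came from GENCODE M21. The steps were tested on simulated counts. Alternatives were DESeq2 1.42.0, 1 fit of 25 libraries, other size factors, no filter, a Brunner gland covariate, the replicate number as a block, and each library left out. Leaving out control libraries above 10 CPM of Ctrb1, and fitting the libraries of the block without it, were added after seeing the data.

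All 10 members are named. Pathway lists name the 2 genes of smallest p, and likeness names 5 genes for each of 3 claudins. Members and lists were chosen with earlier results of these data known. Differences with an unadjusted p of at least 0.1 are given as ranges.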

Additional observations from a re-analysis of the deposited data

Results flagged for a closer look

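Each claudin was looked at in each of 5 groups for a library far from the rest, 50 sets of values in all, of which chance marks about 1 in 20. In 4 sets a library stood apart. Cldn18 in WT_Con replicate 3 was 439 CPM, with 0.0604 to 1.41 in the other WT_Con libraries. Cldn4 in KI_Con replicate 4 was 415 CPM, with 138 to 154 in the others. Cldn1 in KI_Half replicate 3 was 1.4996 CPM, with 0.610 to 0.830 in the others. Cldn3 in KI_Half replicate 5 was 272 CPM, with 334 to 357 in the others.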

How the results depend on the processing

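Of 628 alternative values of 33 claudin differences, 580 kept direction and side of the threshold, 11 passed where the reported value had not, 30 no longer passed and 7 changed sign. Most of the 33 had not passed and kept their side by staying short of the threshold. The 30 losses could come only from the 4 calls of KI_Half vs KI_Con and the 1 of WT_Half vs WT_Con. With 1 library left out, Cldn2 and Cldn15 passed in 10 of 10 fits of KI_Half vs KI_Con, Cldn23 in 5 and Cldn12 in 2. Cldn18 passed in 1 of 11 fits of WT_Half vs WT_Con. For WT_Full vs WT_Con the 0 claudins called became 1 with DESeq2 and 3 with the fit of all 25 libraries, and 0 to 1 with each library left out. For WT_Half vs WT_Con the 1 called became 2 with all 25 libraries and 0 with the Brunner covariate or without control libraries with acinar RNA, and 0 to 2 with each library left out. For KI_Half vs KI_Con the 4 called became 1 without those controls and 2 to 4 with each library left out. In no comparison did every same-numbered pair of libraries correlate above 0.1, the level asked of a pairing. The correlations in KI_Con vs WT_Con were 0.13, 0.21, 0.25 and -0.02 for numbers 1 to 4, where 6 of 8 libraries correlated best with their own number, as did 4 of 6 in KI_Half vs KI_Con and at most 2 of 8 in the others. The replicate block fits hold only libraries whose number is in both groups, 8 of 11 in WT_Half vs WT_Con and 6 of 10 in KI_Half vs KI_Con, and these were also fitted without the block. In WT_Half vs WT_Con the replicate block gave 0 claudins, as did the same libraries without it. In KI_Half vs KI_Con both gave 5, with Cldn4 at 1.16 (adjusted p = 0.000679 with the block, 0.000168 without it), and KI_Con replicate 4 is among the libraries not in these fits. Without control libraries with acinar RNA, signs changed for Cldn18 in WT_Half vs WT_Con (2.72), KI_Con vs WT_Con (3.60) and the interaction (-5.34), and for Cldn1 in KI_Con vs WT_Con (0.59) and the interaction (-0.49). The 2 other changes were Cldn18 with libraries left out, -7.82 to 0.0852 in KI_Con vs WT_Con and -1.82 to 6.07 for the interaction. Leaving those controls out leaves 1 WT_Con library, assumed to vary like the other groups. Other causes were not tested. Over all genes, the 249 called in WT_Half vs WT_Con became 1353 with DESeq2, 720 with 25 libraries, 7 with the Brunner covariate, 0 with the block (5 in the same libraries without it), 0 without those controls, and 21 to 446 with each library left out. The 1 called in WT_Full vs WT_Con became 934, 1289, 0, 0 and 0 in the same order, and 0 to 2069. The 6420 called in KI_Half vs KI_Con became 2565 without those controls. Where 0 genes were called, no edgeR alternative called over 2. Counts of Cldn1 (6 to 277) and Cldn18 (at most 48 outside WT_Con replicate 3) limit their precision.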
